A study of Mus musculus with 10 samples.

Results

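The genes described here are 40 mouse genes of amino acid supply and protein synthesis, 20 that encode cytosolic aminoacyl-tRNA synthetases and 20 of the pathway of the transcription factor ATF4. They are the rows of the deposited gene count table that belong to a written list of names, with older and newer symbols allowed. The list was chosen with earlier results of these data known. All 40 had a row, Mars under its newer symbol, and all 40 were among the 12654 genes that passed the filter on low counts, out of 39488 rows in the table. They were measured by bulk RNA sequencing of 10 libraries of thioglycollate-elicited peritoneal macrophages, 5 control and 5 ox-LDL. Every mouse was C57BL/6 and 8 weeks old, and the cells were collected on the third day after thioglycollate, a broth that draws macrophages into the peritoneal cavity. The ox-LDL cells were primed with LPS, a bacterial cell wall component (100 ng/ml), and then kept for 16 h in 100 µg/ml ox-LDL, which is low density lipoprotein in oxidised form. The labels call the control cells untreated, although the description of the study can also be read as LPS priming in both groups. The effects of LPS and of ox-LDL cannot be told apart here. The samples are named biological replicates, and whether each came from its own mouse is not stated, so p-values measure the spread between these libraries.

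Aminoacyl-tRNA synthetases join each amino acid to its tRNA, and most amino acids have a separate enzyme for the cytosol and for mitochondria. When amino acids run short, the endoplasmic reticulum is loaded with misfolded protein or oxidants rise, kinases phosphorylate the initiation factor eIF2, general translation slows and translation of ATF4 increases. ATF4 then drives genes for amino acid transport, amino acid synthesis and tRNA charging, together with stress regulators such as Ddit3 (CHOP) and feedback factors such as Trib3 and Ppp1r15a. Wars, the tryptophanyl-tRNA synthetase, is also known as a gene induced by interferon-gamma in many cell types, which sets it apart from most other synthetases. In macrophages these pathways are known for their part in responses to bacterial products, oxidised lipids and tryptophan shortage.

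ATF4 binds with C/EBP proteins to a short element in the promoters of its targets. Because many of these genes are known ATF4 targets, the 250 bases before the start of each gene were searched on both strands for TGATGNAA, the letters of that C/EBP-ATF response element, in the promoter sequences of RefSeq on GRCm38.p6. The table held 31 of the 40 genes. Wars, Cars, Hars, Lars, Nars, Rars, Vars, Eif4ebp1 and Slc7a5 are missing entries. The element was present in 6 of the 31, against 3.91% of the 27025 genes in the table. Matches stood at position -112 from the start in Aars, -30 in Gars, -15 in Tars, -110 in Atf3, -193 in Chac1 and -23 in Asns. The 6 stretches are shown because they place the same letters beside 3 synthetases, a transcription factor, a glutathione-degrading enzyme and asparagine synthetase. Each reads 5′ to 3′ along the gene's strand, capitals mark the match, and a match on the opposite strand reads as the reverse complement of the motif.
Aars, chr8:111033690-111033759 (+): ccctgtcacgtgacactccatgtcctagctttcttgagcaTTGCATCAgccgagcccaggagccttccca
Gars, chr6:55037931-55038000 (+): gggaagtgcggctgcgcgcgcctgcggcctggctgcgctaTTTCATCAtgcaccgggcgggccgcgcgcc
Tars, chr15:11399659-11399713 (-): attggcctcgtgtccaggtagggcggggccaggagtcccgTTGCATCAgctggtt
Atf3, chr1:191183414-191183483 (-): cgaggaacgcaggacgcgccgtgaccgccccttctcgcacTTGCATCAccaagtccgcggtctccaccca
Chac1, chr2:119351009-119351078 (+): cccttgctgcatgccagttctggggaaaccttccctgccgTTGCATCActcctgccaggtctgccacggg
Asns, chr6:7693210-7693272 (-): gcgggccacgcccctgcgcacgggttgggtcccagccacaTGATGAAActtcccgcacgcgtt

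The letters of 2 interferon elements were searched in the same windows. An interferon-stimulated response element, written as GAAA and GAAA with any 2 bases between them, was present in 2 of the 31 genes, Ppp1r15a and Qars, against 3.46% of all genes. TTCNNNGAA, a gamma-activated site, was present in 4 of the 31, Aars, Kars, Shmt2 and Slc7a1, against 8.13% of all genes. No match of one motif overlapped a match of another in these genes. The stretches of Ppp1r15a, Kars and Aars are shown because these genes rose with ox-LDL. A match is a run of letters and was not tested as a binding site.
Ppp1r15a, chr7:45526459-45526518 (-): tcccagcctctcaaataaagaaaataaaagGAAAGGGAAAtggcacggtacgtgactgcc
Kars, chr8:112011355-112011403 (-): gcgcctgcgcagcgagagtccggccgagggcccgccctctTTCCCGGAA
Aars, chr8:111033714-111033783 (+): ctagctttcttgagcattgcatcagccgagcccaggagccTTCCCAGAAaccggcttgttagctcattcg

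The libraries held 20094647 to 20687289 counts in the control group and 19257131 to 20358017 in the ox-LDL group. Levels are given as TMM-normalized CPM, which are counts scaled to a common library total and then so that most genes keep their level across libraries. FPKM, where named, is a level per length of the gene. The 8 macrophage markers summed to 23168 to 42854 CPM, here scaled by library total, in controls and 13363 to 28376 in ox-LDL libraries. Most of this sum was Lyz2, which averaged 27793 and 17453 TMM-normalized CPM (adjusted p = 0.37), while 6 of the 8 markers had log2 fold changes above 0, with a median of 0.59, and 2 rose, Adgre1 (2.07) and Cd14 (2.24). The 6 neutrophil markers, of which 5 had a row, summed to 6.45 to 15.4 and 13.05 to 90.2, with Mpo and Elane at 3 counts or fewer in every library and S100a8 higher in the ox-LDL group (log2 fold change 2.76). Markers of B cells, T cells, mesothelium and dendritic cells summed to 3.98 or less in every library, and those of mast cells and eosinophils to 3.20 to 11.3 in controls and 0.470 to 3.00 with ox-LDL. Their part in the results was not tested, and fewer cells of a type and less RNA per cell cannot be told apart in bulk RNA. Several libraries stood apart from their group. Across 12175 genes, levels relative to the group leaned towards short genes in control 1, control 4 and ox-LDL 2 (Spearman -0.61, -0.50 and -0.67), while the other libraries gave 0.08 to 0.53. Control 5 had the highest control level of the interferon-induced factor Irf8, 141 CPM against 91.9 to 96.2 in the other controls. Results are also given without ox-LDL 2, without ox-LDL 5 or without control 5, ox-LDL 2 and ox-LDL 5 together where this moves them. The joint omission was chosen after seeing the data, and it keeps control 1 and control 4.

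With ox-LDL, 8 of the 40 genes rose and 0 fell, at an adjusted p below 0.01 in edgeR's quasi-likelihood test, the false discovery cutoff of the study. Of all 12654 genes tested, 9.40% rose and 5.35% fell, so the genes that rose made up a share of the list above that background and the genes that fell a share below it. The 8 were the synthetases Wars, Aars, Kars and Rars, the stress regulators Ddit4, Trib3 and Ppp1r15a, and Slc3a2, the heavy chain of several amino acid transporters. No gene fell at an unadjusted p below 0.05 either, where 1996 of all 12654 genes did. DESeq2 and limma-voom gave 0 genes down and 11 and 7 up. The median log2 fold change over the 40 genes was 0.78, against 0.097 over all genes tested, with 34 above 0 and 6 below. Of all 12654 genes, 7117 were above 0 and 5537 below. With a log2 fold change above 2 as well, the other cutoff of the study, Wars, Ddit4 and Ppp1r15a remained, 3 of 40, against 4.78% of all genes. At an adjusted p below 0.05, 14 of 40 were higher, against 16.2% of all genes. The ox-LDL libraries lay wholly above the controls in 8 of the 40 genes, against 11.6% of all genes, and these were Wars, Kars, Rars, Ppp1r15a, Slc3a2, Ddit4, Ddit3 and Cebpg. The count of 8 rested in part on single libraries and on the scaling. It was 4 without control 1 or without control 2, 3 without control 4 and 5 without control 5. Without control 5, ox-LDL 2 and ox-LDL 5 together, a choice made after seeing the data, it was 9. It was 3 with scaling by library size alone, where Wars, Ppp1r15a and Slc3a2 remained.

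**Figure D1:**
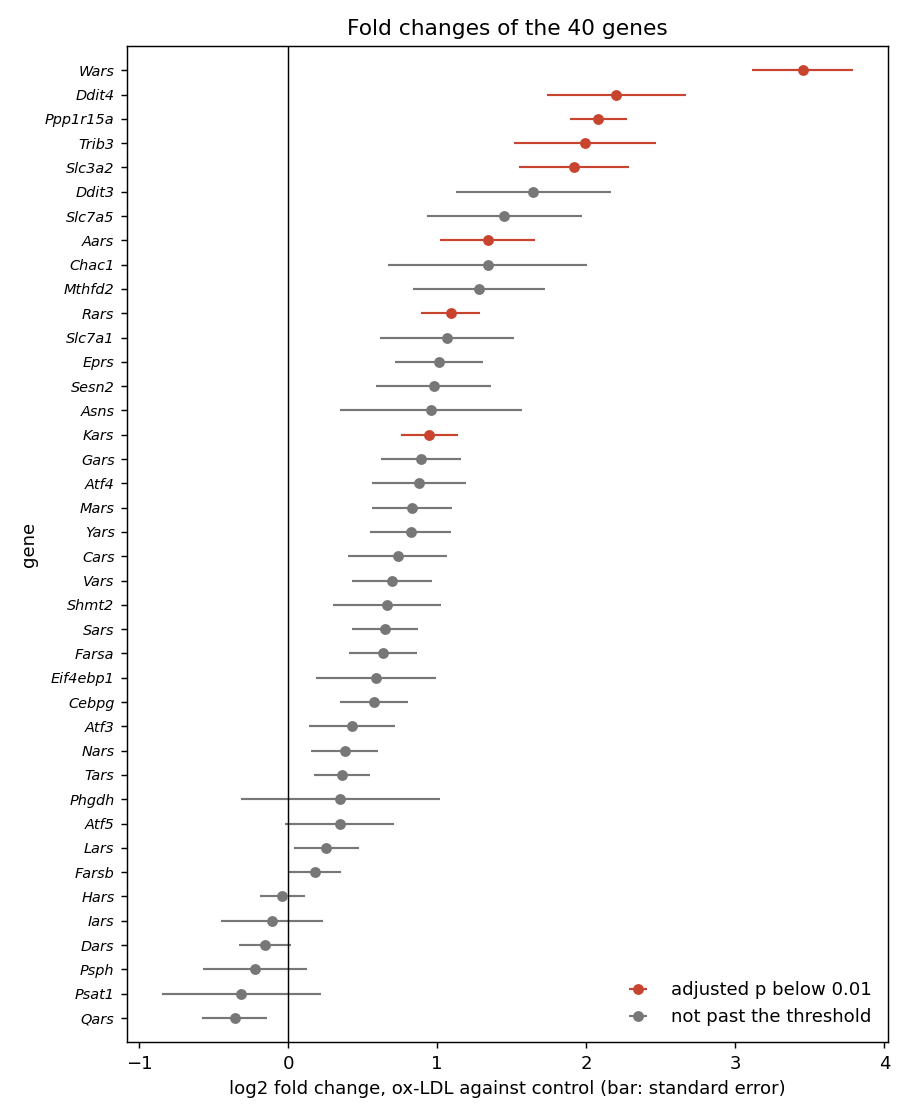
Log2 fold change of each of the 40 genes, ox-LDL against control (5 libraries each, edgeR), with bars of 1 standard error and genes past an adjusted p of 0.01 in red. Wars stands alone at 3.45, the other red genes lie between 0.95 and 2.20, and 6 genes lie below 0.

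Wars (NCBI gene 22375, chr12:110098240-110132384 on the minus strand of mm9) was the synthetase with the highest fold change. It stood at 22.0, 33.6, 45.1, 24.3 and 38.4 CPM in controls 1 to 5 and at 158, 352, 339.8, 485 and 452 in ox-LDL libraries 1 to 5. The groups did not overlap, and the lowest ox-LDL library, ox-LDL 1, was above the highest control. The means were 32.7 ± 9.66 and 357 ± 128 CPM (SD, n = 5 each), a 10.9-fold ratio, with a log2 fold change of 3.45 ± 0.34 (SE) and an adjusted p of 3.7e-05. An exact two-sided permutation test over all arrangements of the libraries gave p = 0.00794, the smallest it can give. By fold change Wars ranked 242 among the 1189 genes that rose, and by p it ranked 105 among all genes. Wars passed the threshold in all 23 alternative analyses, with log2 fold changes of 3.10 to 3.64.

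Set against the other 19 synthetases within each library, Wars was below the median of the family in every control and above it in every ox-LDL library. Its log2 CPM less the median of the other 19 was -0.78, -0.76, -0.62, -0.72 and -0.11 in controls 1 to 5 and 1.37, 2.83, 2.18, 3.03 and 2.69 in ox-LDL libraries 1 to 5. The groups did not overlap, with control 5 nearest to 0 and ox-LDL 1 the lowest of its group. The group means were -0.60 ± 0.28 and 2.42 ± 0.66 (SD, n = 5 each), a difference of 3.02. Wars held 2.19% to 3.80% of all counts of the 20 synthetases in controls and 8.48%, 20.96%, 15.5%, 22.3% and 22.0% in ox-LDL libraries 1 to 5. Values within a library do not depend on how libraries are scaled to each other. In the fits, the log2 fold change of Wars was 2.80 above the median of the other 19, and 2.64 to 2.98 above it over all alternatives.

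**Figure D2:**
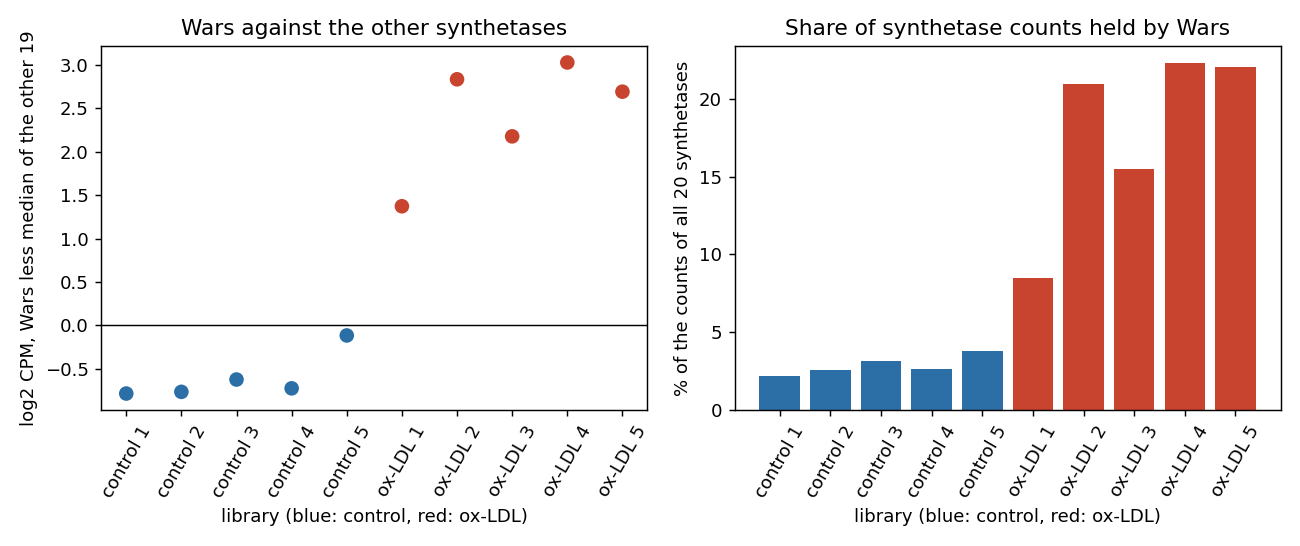
Left, log2 CPM of Wars less the median log2 CPM of the other 19 cytosolic synthetases in each library; right, the percentage of all synthetase counts that belonged to Wars in each library, with controls in blue and ox-LDL in red. The 5 controls lie between -0.78 and -0.11 and between 2.19% and 3.80%, and the 5 ox-LDL libraries between 1.37 and 3.03 and between 8.48% and 22.3%.

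Per length of the gene, Wars averaged 13.8 ± 4.91 FPKM in controls, rank 13 of the 20 synthetases, and 129 ± 53.6 FPKM with ox-LDL, rank 1 (SD, n = 5 each). Its rank was 11 to 14 in every control, 4 in ox-LDL 1 and 1 in the other ox-LDL libraries. The highest mean level in controls belonged to Rars, the arginine enzyme, at 58.4 ± 10.2 FPKM, and Nars, the asparagine enzyme, followed at 57.7 ± 17.9, a gap within the spread of both. With ox-LDL, Rars averaged 107 ± 24.8 FPKM, which overlaps the level of Wars within their SDs. Vars, the valine enzyme, had the lowest mean in both groups, 2.41 ± 0.96 and 3.49 ± 1.54 FPKM.

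Of the other 19 synthetases, 3 rose, Aars, Kars and Rars, and 0 fell, with a median log2 fold change of 0.65 and 15 of 19 values above 0. The 3 and 0 of 19 stand beside 9.40% and 5.35% of all genes, and the 15 of 19 above 0 beside 7117 of 12654. Rars was at 100.5, 118, 115, 102 and 106 CPM in controls 1 to 5 and at 162, 245, 256, 197 and 293 in ox-LDL libraries 1 to 5. Its controls lay close together, all ox-LDL libraries were above them, and the log2 fold change was 1.09 ± 0.20 (SE, adjusted p = 0.0017). Rars lost the call in 3 of 23 alternatives, scaling by library size alone and the fits of FPKM, with adjusted p up to 0.015. Kars, the lysine enzyme of both the cytosol and mitochondria, was at 62.4, 66.1, 69.4, 54.2 and 55.9 CPM in controls and at 99.1, 91.2, 119, 123 and 161 with ox-LDL. These groups did not overlap either, and the log2 fold change was 0.95 ± 0.19 (adjusted p = 0.0034). The call was lost in 9 of 23 alternatives, among them the omission of control 1, 2, 4 or 5, with adjusted p up to 0.073. The annotation lists a pseudogene, Kars-ps1, which could share reads with it.

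Aars, the alanine enzyme, was at 22.5, 57.1, 72.3, 31.8 and 48.7 CPM in controls and at 132, 67.9, 133, 147 and 109 with ox-LDL. The groups overlapped, since ox-LDL 2 was below control 3, and the log2 fold change was 1.34 ± 0.32 (adjusted p = 0.0089). It lost the threshold in 13 of 23 alternatives, with adjusted p up to 0.069. The sum of the other 19 enzymes was 1101 ± 217 CPM in controls and 1635 ± 194 CPM with ox-LDL (SD, n = 5 each). The number of the 19 that rose was 1 without control 1, control 2, control 4 or control 5, 5 without ox-LDL 2 and 0 with scaling by library size alone.

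At the looser threshold of 0.05, 5 more synthetases were higher. These were Eprs, the enzyme for both glutamate and proline, with a log2 fold change of 1.01 (adjusted p = 0.024), Gars for glycine with 0.89 (0.027), Mars for methionine with 0.83 (0.037), Yars for tyrosine with 0.82 (0.043) and Sars for serine with 0.65 (0.048). Mars overlaps Ddit3 on the opposite strand at 1 end, from 126733277 to 126733344 on chr10 of mm9. Whether counting used the strand is not stated, so reads within this short stretch cannot be told apart. Another 7 enzymes had values above 0 that did not pass, which were Cars (cysteine) 0.74, Vars 0.70, Farsa 0.64, Nars 0.38, Tars (threonine) 0.36, Lars (leucine) 0.26 and Farsb 0.18. Farsa and Farsb are the subunits of the phenylalanine enzyme, and Farsb overlaps Sgpp2 on the opposite strand. The 4 below 0 were Hars (histidine) at -0.04, Iars (isoleucine) at -0.11, Dars (aspartate) at -0.15 and Qars (glutamine) at -0.36. Dars and Hars varied little in any library, from 54.0 to 88.3 and from 37.3 to 52.9 CPM. The signs of Farsb, Hars and Iars turned under some alternatives.

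**Figure D3:**
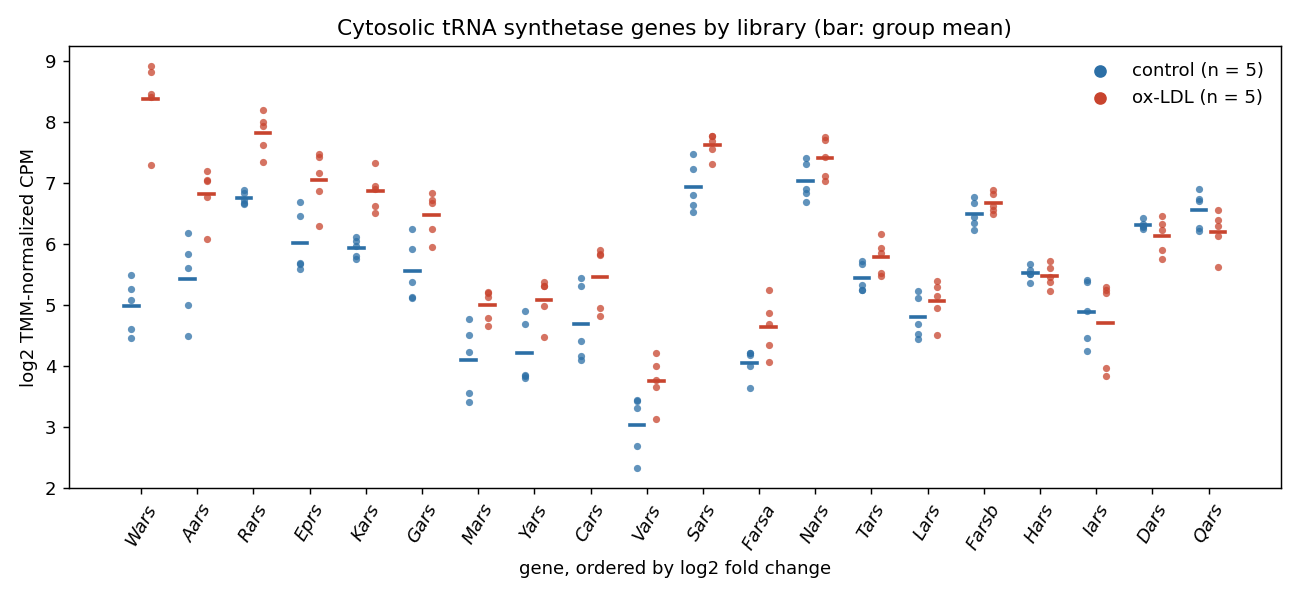
Log2 TMM-normalized CPM of the 20 cytosolic synthetase genes in each library (points) with group means (bars), controls in blue and ox-LDL in red, ordered by log2 fold change. Wars is the gene whose groups are farthest apart, Rars and Kars also show groups that do not overlap, and the genes at the right of the plot overlap throughout.

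The mitochondrial enzymes charge tRNAs for the few proteins made inside mitochondria. Of 17 such genes tested, 0 rose and 0 fell in edgeR, against 9.40% and 5.35% of all genes tested. The median log2 fold change was -0.09. At an unadjusted p below 0.05, 1 was higher and 4 lower, against 2905 and 1996 of all 12654 genes. DESeq2 called 1 up and 2 down and limma-voom 0. Wars2, the mitochondrial tryptophan enzyme, averaged 9.63 ± 1.77 CPM in controls and 9.04 ± 3.07 with ox-LDL, a log2 fold change of -0.09 ± 0.27 (adjusted p = 0.84). The 3 scaffold genes of the cytosolic multi-synthetase complex (Aimp1, Aimp2, Eef1e1) had log2 fold changes of 0.39 to 0.74. The 3 tools called 0 of them, where 9.40% of all genes rose in edgeR. At an unadjusted p below 0.05, 1 of the 3 genes was higher, against 2905 of 12654.

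Among the 5 transcription factors, 0 passed the threshold in edgeR, where 9.40% of all genes rose. DESeq2 called 1, Ddit3, and limma-voom 0. At an unadjusted p below 0.05, 3 of the 5 were higher, against 2905 of all 12654 genes. Atf4, the transcription factor of the pathway, was at 187, 255, 279.6, 310.4 and 185 CPM in controls and at 369, 804, 429, 403.5 and 234 with ox-LDL. Ox-LDL 2 was the highest and ox-LDL 5 lay among the controls, and the log2 fold change was 0.88 ± 0.32 (adjusted p = 0.059), or 0.52 without ox-LDL 2. ATF4 is controlled largely by translation, which RNA levels do not measure.

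Ddit3, the CHOP factor of the unfolded protein response, was at 49.6, 45.6, 57.5, 59.0 and 40.01 CPM in controls and at 126, 454, 69.4, 62.2 and 75.9 with ox-LDL. The groups did not overlap, yet ox-LDL 2 carried most of the difference. The log2 fold change was 1.65 ± 0.52 (adjusted p = 0.035), and 0.69 (adjusted p = 0.024) without ox-LDL 2. Ddit3 is the shortest of the 40 genes, at 777 bases, and ox-LDL 2 is the library that leaned most towards short genes. Whether length is a cause of the value in ox-LDL 2 was not tested. With the length trend of each library removed, the log2 fold change of Ddit3 was 1.39 and passed the threshold (adjusted p = 0.0010).

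Atf3, a factor induced by many stresses and by Toll-like receptor signals, was at 505, 369, 357, 413 and 382 CPM in controls and at 367, 481, 443, 444 and 989.7 with ox-LDL. Leaving ox-LDL 5 aside, the groups covered nearly the same range. The log2 fold change was 0.43 (adjusted p = 0.30), 0.09 without ox-LDL 5 and -0.03 without control 5, ox-LDL 2 and ox-LDL 5 together. Cebpg, a C/EBP partner of ATF4, averaged 61.9 ± 5.11 and 92.4 ± 34.6 CPM with groups that did not overlap (log2 fold change 0.58, adjusted p = 0.081, and 0.28 without ox-LDL 2). Atf5, a relative of ATF4, averaged 22.1 ± 5.01 and 28.1 ± 16.3 CPM (log2 fold change 0.35, adjusted p = 0.53). Atf5 overlaps Nup62 and Il4i1 on the opposite strand.

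The 6 genes of stress feedback and growth control held 3 that rose, against 9.40% of all genes tested. Ppp1r15a (GADD34, chr7:52778286-52781638 on mm9), the phosphatase subunit that returns eIF2 to its active form, was at 19.1, 22.6, 25.5, 24.5 and 24.4 CPM in controls and at 64.8, 96.8, 104, 117 and 109 with ox-LDL. The replicates were tight in both groups and far apart between them. The log2 fold change was 2.08 ± 0.19 (adjusted p = 2.7e-05), rank 72 of all genes by p, and Ppp1r15a passed in all 23 alternatives. Tulp2 overlaps it on the opposite strand.

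Ddit4 (REDD1), an inhibitor of the growth kinase mTORC1, was low throughout, at 0.774, 0.599, 0.813, 0.412 and 0.869 CPM in controls and 1.78, 1.46, 2.78, 2.58 and 7.47 with ox-LDL. These are 8 to 20 counts per control library and 17 to 125 per ox-LDL library, and the groups did not overlap. The log2 fold change was 2.20 ± 0.47 (adjusted p = 0.0045), and 1.61 (adjusted p = 0.0043) without ox-LDL 5, the highest library. The call was lost in 5 of 20 alternatives, scaling by library size alone and the omission of control 1, 2, 3 or 4, with adjusted p up to 0.015. Trib3, a pseudokinase that restrains ATF4 and CHOP, was at 2.38, 7.66, 10.1, 3.19 and 3.43 CPM in controls and at 28.0, 22.5, 24.7, 25.9 and 5.85 with ox-LDL. Of the ox-LDL libraries 1 to 4, all were above every control, while ox-LDL 5 lay below controls 2 and 3. The log2 fold change was 1.99 ± 0.48 (adjusted p = 0.0089), or 2.23 (adjusted p = 0.0026) without ox-LDL 5, and the call was lost in 16 of 23 alternatives, with adjusted p up to 0.038.

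The other 3 did not pass. Chac1, which breaks down glutathione, was at 0.387, 2.27, 3.98, 1.03 and 0.348 CPM in controls and at 4.57, 6.76, 4.19, 4.16 and 0.836 with ox-LDL, from 7 to 93 and 14 to 105 counts. Its log2 fold change of 1.34 ± 0.67 (adjusted p = 0.16) stood against an 11.5-fold range among the controls. Sesn2, a sestrin that senses leucine, averaged 8.69 ± 4.05 and 17.1 ± 7.01 CPM (log2 fold change 0.98, adjusted p = 0.082). Eif4ebp1, the translation repressor 4E-BP1, averaged 139 ± 39.2 and 209.7 ± 157 CPM (log2 fold change 0.59, adjusted p = 0.31), and its sign turned without ox-LDL 2, to -0.04.

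Of the 6 enzymes for serine, glycine, asparagine and one-carbon units, 0 passed in edgeR, DESeq2 or limma-voom. In edgeR, 9.40% of all genes tested rose. At an unadjusted p below 0.05, 1 of the 6 was higher, Mthfd2, against 2905 of all 12654 genes. Asns, asparagine synthetase, was at 19.3, 53.7, 86.9, 15.3 and 8.04 CPM in controls and at 89.6, 74.8, 93.0, 82.2 and 17.4 with ox-LDL. Ox-LDL libraries 1 to 4 lay close together near the highest control, and ox-LDL 5 lay among the lower controls. The log2 fold change was 0.96 ± 0.61 (adjusted p = 0.27). Mthfd2, the mitochondrial folate enzyme, had 1.28 ± 0.44 (adjusted p = 0.051), and Shmt2, the mitochondrial serine hydroxymethyltransferase, 0.66 ± 0.36 (adjusted p = 0.20), with Ndufa4l2 overlapping it on the opposite strand. The serine synthesis genes in order of the pathway were Phgdh with 0.35 ± 0.67, Psat1 with -0.31 ± 0.53 and Psph with -0.22 ± 0.35, all at adjusted p of 0.69 to 0.75.

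Against 9.40% of all genes tested, 1 of the 3 transporter genes rose, Slc3a2. It was at 62.6, 121.5, 135, 90.6 and 152 CPM in controls and at 239, 249, 391.5, 461 and 785 with ox-LDL, with no overlap and ox-LDL 5 the highest. The log2 fold change was 1.92 ± 0.37 (adjusted p = 0.0025), and 1.56 (adjusted p = 0.0040) without ox-LDL 5. The call was lost in 3 of 23 alternatives, the fits of FPKM and the omission of control 4, with adjusted p up to 0.012. Slc7a5, the LAT1 light chain that pairs with Slc3a2 to carry large neutral amino acids including tryptophan, averaged 2.64 ± 2.13 and 7.25 ± 2.80 CPM, with a log2 fold change of 1.45 ± 0.52 (adjusted p = 0.058). Slc7a1, the arginine and lysine transporter CAT1, averaged 7.12 ± 4.41 and 14.9 ± 6.29 CPM, with 1.07 ± 0.45 (adjusted p = 0.10).

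Several amino acid genes varied widely among replicates of 1 condition. Phgdh ranged 15.8-fold among the 5 controls, Chac1 11.5-fold, Asns 10.8-fold and Psat1 7.76-fold, against a median range of 1.67-fold over 12349 genes. Over the 40 genes the median range was 2.14-fold in controls and 2.49-fold with ox-LDL, where the median over all genes was 2.48-fold. Control 3 was the highest control for 27 of the 40 genes, and it was so for 15.9% of all genes. For the 9 enzyme and transporter genes it was the highest control in 8, and control 5 the lowest in 5. Ox-LDL 5 was the lowest ox-LDL library for 13 of the 20 ATF4 pathway genes and for 7 of the 9 enzyme and transporter genes, against 24.9% of all genes. Psat1 is an example, with 55.8, 92.0, 129, 34.2 and 16.7 CPM in controls 1 to 5 and 87.4, 40.9, 62.4, 58.4 and 14.8 in ox-LDL libraries 1 to 5. Control 3 was also the highest control for Wars, Ppp1r15a and Kars, but their ranges among controls, and that of Rars, were narrower, at 2.06-fold, 1.33-fold, 1.28-fold and 1.18-fold, and ox-LDL 5 was not the lowest ox-LDL library for any of these 4 genes. Ox-LDL 2 was the lowest of its group for 12 of the 19 other synthetases, but it was also the lowest for 38.0% of all genes.

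**Figure D4:**
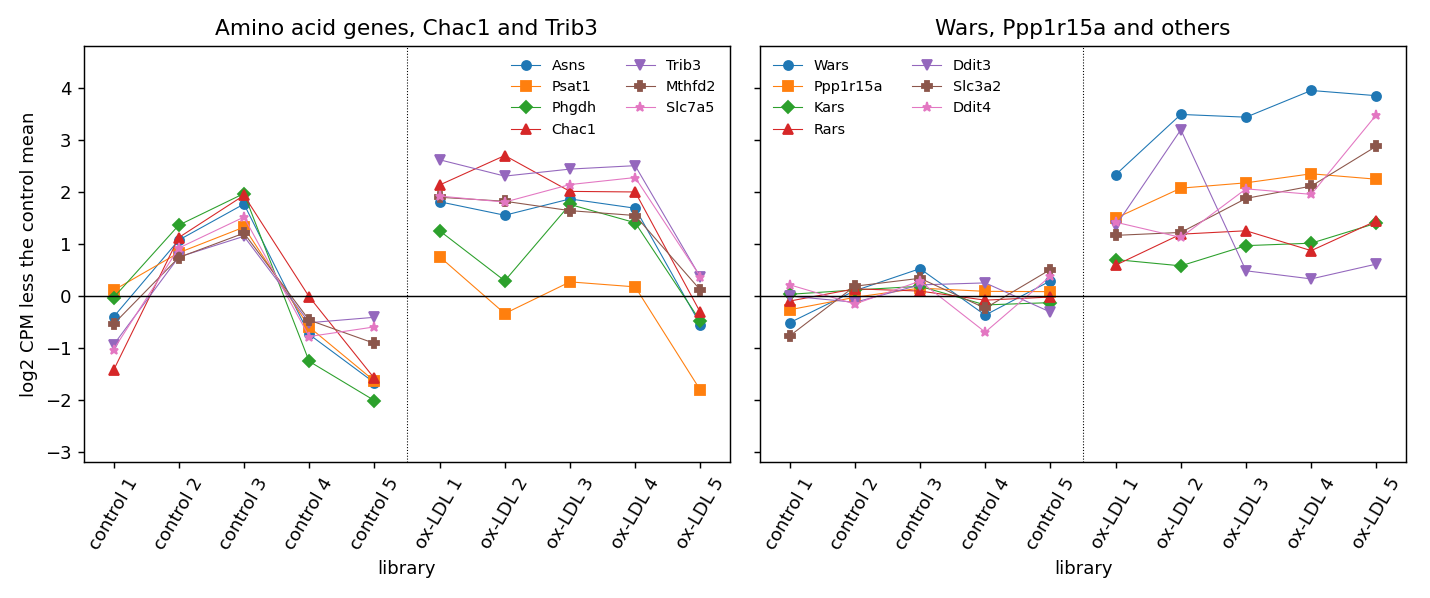
Log2 CPM of each gene less its mean over the 5 controls, by library, with control libraries left of the dotted line. Lines join the values of 1 gene and mark no order among replicates. In the left panel 7 genes (Asns, Psat1, Phgdh, Chac1, Trib3, Mthfd2, Slc7a5) peak in control 3 among the controls and drop in ox-LDL 5, and in the right panel the controls of Wars, Ppp1r15a, Kars, Rars, Slc3a2, Ddit3 and Ddit4 lie nearer to 0.

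Upstream of ATF4, 15 genes were tested: the eIF2 kinases, eIF2, its exchange factor eIF2B, and regulators of eIF2 and its kinases. In edgeR 0 of the 15 fell, against 5.35% of all genes, with 0 lower at an unadjusted p below 0.05. DESeq2 and limma-voom called none lower. Of the 15, 2 rose, a share near the 9.40% of all genes tested. Both were eIF2B subunits, Eif2b2 with a log2 fold change of 0.60 ± 0.13 (adjusted p = 0.0059) and Eif2b3 with 0.83 ± 0.19 (adjusted p = 0.0075), and each lost the call in 14 of 23 alternatives. Of the 4 kinases, Eif2ak2 (PKR, activated by double-stranded RNA and induced by interferon) had 0.69 ± 0.21 (adjusted p = 0.030) and Eif2ak4 (GCN2, activated by uncharged tRNA) 0.66 ± 0.25 (adjusted p = 0.072). Eif2ak1 (HRI, the haem-regulated kinase) had 0.11 ± 0.17 (adjusted p = 0.69) and Eif2ak3 (PERK, the kinase of the endoplasmic reticulum) -0.43 ± 0.28 (adjusted p = 0.28). The sign of Eif2ak1 turned with scaling by library size alone.

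Of 27 other genes assigned to the ATF4 pathway, 21 passed the low-count filter, 8 of these rose, against 9.40% of all genes tested, and 0 fell, against 5.35%, and DESeq2 and limma-voom called 8 up and 1 down. The 1 that both called down was Gadd45a, a growth arrest gene named after its values were seen, with a log2 fold change of -1.74 in edgeR (adjusted p = 0.010). Slc7a11, the cystine transporter that pairs with Slc3a2 and is also a target of NRF2, was at 4.81, 8.69, 11.9, 5.36 and 8.69 CPM in controls and at 127, 62.5, 396, 334 and 317 with ox-LDL. The groups did not overlap, and the log2 fold change of 4.97 ± 0.53 (adjusted p = 6.2e-05) exceeded that of all 40 genes described above. Slc6a9, the glycine transporter GLYT1, had 4.81 ± 0.84 (adjusted p = 0.0015) from 1 to 25 counts per control library and 26 to 536 per ox-LDL library. The other 3 with the smallest p were the transcription factors Jdp2 (2.47 ± 0.36) and Cebpb (2.19 ± 0.30) and the stress cytokine Gdf15 (1.95 ± 0.35), at adjusted p of 2.8e-04 to 0.0017. Cebpb, Jdp2 and Gdf15 are known to answer to other signals as well.

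The genes chosen as companions of Wars, those of tryptophan breakdown and the interferon-gamma response, all rose where they could be tested, 8 of 8 out of 11 listed, against 9.40% of all genes tested. The list was chosen with earlier results known, so this count is a description. Gbp2, an interferon-induced GTPase, averaged 26.8 ± 7.43 and 2463 ± 1208 CPM (log2 fold change 6.52 ± 0.46). The transcription factors Irf1 and Irf8 had 4.70 ± 0.41 and 3.24 ± 0.39, and Socs1, a feedback inhibitor of this signal, 5.12 ± 0.80, all at adjusted p of 5.6e-06 to 7.1e-04. The median of the 8 was 3.28, beside 3.45 for Wars, 0.65 for the other synthetases and 0.97 for the 20 ATF4 pathway genes. The other ATF4 pathway genes tested had a median of 0.63 and a highest value of 4.97. Which signal raised Wars was not tested. Control 5, which had the highest Wars value relative to the other synthetases among the controls, also had the highest control levels of Irf8, Irf1, Gbp2 and Socs1. It had the lowest control level of Psme1, and Psme2 and Kynu were highest in control 1; these 3 genes, proteasome activator subunits and an enzyme of tryptophan breakdown, were named after their values were seen. Control 5 was the highest control for 29.1% of all genes. The CPM of Wars itself was highest in control 3, at 45.1, against 38.4 in control 5. Ido1, the interferon-induced enzyme that breaks down tryptophan, had 0 or 1 counts in each library, under the 3 counts that a count of 0 allows, and was not tested. It was named after its values were seen.

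**Figure D5:**
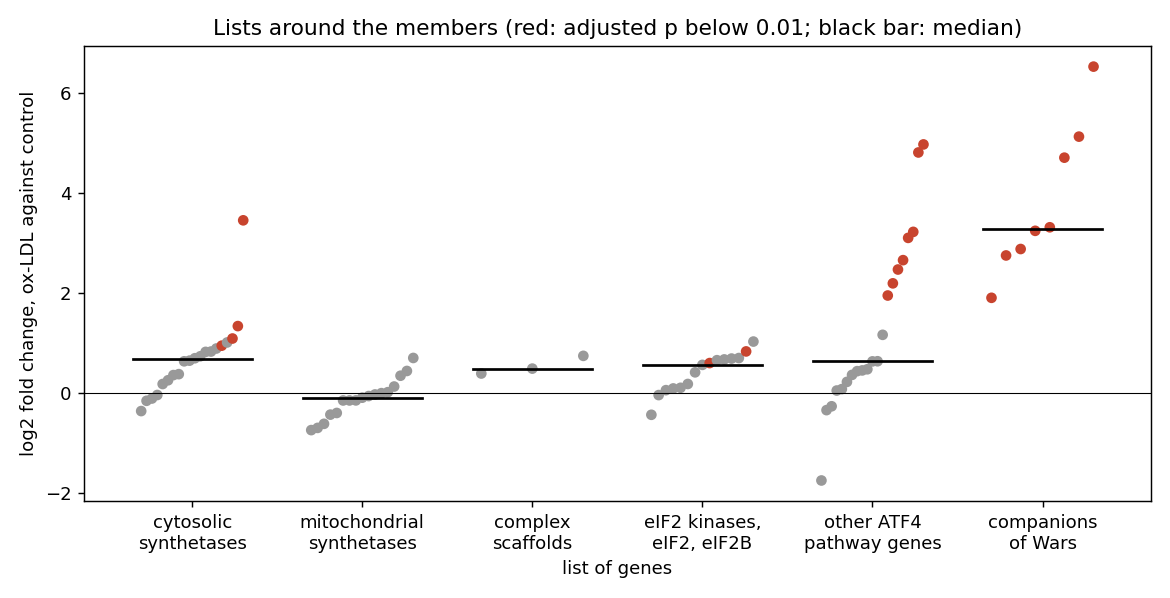
Log2 fold change of each tested gene, ox-LDL against control, in 6 lists, with genes past an adjusted p of 0.01 in red and list medians as black bars. Among the cytosolic synthetases 1 point, Wars, stands at 3.45. This is within the range of the companions of Wars (1.90 to 6.52) and of the other ATF4 pathway genes (-1.74 to 4.97). The mitochondrial synthetases centre on -0.09.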

How the data were processed

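Total RNA of 5 control and 5 ox-LDL samples was sequenced on a BGISEQ-500. The authors ran FastQC, aligned reads to mm9 with HISAT2 2.0.5 and used SAMtools 1.4 for sorting and StringTie 1.3.3.13 for assembly. Per the file headers, the count table holds raw reads per gene; 13.6% of its values have a fractional part, so they are estimated counts as deposited, and the step that made them and its use of strand are not given in the sources used here. A second value per gene and library carries no unit in its header; a gene's length worked out from its count, this value and the depth was nearly the same in every library (median CV 0.812% over 4059 rows). It was taken as FPKM, scaled by the authors to gene length and depth.

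Counts were rounded, the 9788 circular RNA rows (1.44% to 2.24% of counts) were left out, and 12654 genes passed filterByExpr. Ox-LDL was tested against control with TMM and edgeR 4.0.16 (robust quasi-likelihood F test, Benjamini-Hochberg over all genes tested, R 4.3.3), at an adjusted p below 0.01. The SE of a log2 fold change is its size over the square root of F. TMM factors ran from 0.593 to 1.19. On simulated counts for this comparison, 176 of 200 changed genes were recovered among 12515, with 1 false call. The changes put in had log2 sizes at or above the study's cutoff of 2 and were placed only in genes above a minimum mean level. The simulated libraries had no length trends. This recovery holds only for the sizes of change and the settings that were simulated. It gives no rate for smaller changes, and it cannot show whether genes that did not pass the threshold were unchanged. DESeq2 1.42.0, limma 3.58.1, other scalings, filters and rows, a replicate block, removal of length trends and omission of libraries were alternatives. The closest pair of libraries, control 2 and control 3, differed by more than counting noise (median chi-square per gene 1.41 against 0.455). No library was thus a copy of another, and each counted as 1 sample. This check cannot show whether each came from its own mouse. Coordinates of genes and their overlaps are from the GENCODE annotation of mm9.

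The members and lists were chosen with earlier results of these data known. All 40 members are named, with values in every library for Wars, Atf4, Atf3, Ddit3, Trib3, Asns and Chac1 and for every other member past the threshold. Of the other pathway lists, at most the 5 genes with the smallest p past the threshold are named, together with Slc7a11, Wars2 and the 4 eIF2 kinases; some genes of these lists are not reported here. No test was made over the members as a set.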

Additional observations from a re-analysis of the deposited data

Results flagged for a closer look

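In 82 groups of 5 libraries, 1 library lay far from the others in 8, where chance gives about 4.1, by a gap to its nearest neighbour that exceeded Dixon's critical value as a share of the whole range of the group. Ox-LDL 5 accounted for 4 of these, with the highest Atf3 (989.7 CPM, the next library at 481), the highest Ddit4 (7.47, the next at 2.78), the lowest Trib3 (5.85, the next at 22.5) and the lowest Asns (17.4, the next at 74.8). Ox-LDL 2 accounted for 3, with the highest Ddit3 (454 CPM, the next library at 126), the highest Cebpg (153, the next at 85.7) and the highest Eif4ebp1 (488, the next at 155). Ddit3 and Eif4ebp1 are the shortest genes of the 40 and Cebpg is the longest, and ox-LDL 2 leaned towards short genes. Whether gene length is a cause of these values was not tested. With the length trend of each library removed, the log2 fold changes were 1.39 for Ddit3 (adjusted p = 0.0010), 0.54 for Eif4ebp1 (0.027) and 0.50 for Cebpg (0.26), beside 1.65, 0.59 and 0.58 without this step. In control 5, Wars was at -0.115 relative to the median of the other synthetases on the log2 CPM scale, with the next control at -0.62.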

How the results depend on the processing

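Of the 40 genes, 8 rose at an adjusted p below 0.01. The count was 3 with scaling by library size alone, 2 with limma on log2(FPKM + 1) or log2(FPKM + 0.1), 14 at an adjusted p below 0.05, 3 with a log2 fold change above 2 as well, and 3 to 9 with 1 library left out. For the 20 synthetases, where 4 rose, these counts were 1, 1, 1, 9, 1 and 2 to 6. For the 19 without Wars, where 3 rose, they were 0, 0, 0, 8, 0 and 1 to 5, with 5 by DESeq2 and 5 with the length trend removed. The cause of these changes was not tested, except that fewer samples entered when a library was left out. Same-numbered libraries correlated between -0.285 and 0.443, and 1 control correlated best with its own number. Controls 1 and 4, which leaned towards short genes, correlated best with ox-LDL 2 (0.46 and 0.49), which did so too. The check therefore cannot decide whether the numbers pair the samples. With a replicate block, 5 of the 40 genes, 2 of the 20 synthetases and 1 of the 19 without Wars rose. Relative to TMM, the median over the same 12654 genes shifted by -0.19 with library size alone and -0.14 with upper-quartile scaling. The FPKM fits covered 10470 genes and the fit without a filter 29267. Their medians differed from the main one by -0.23, -0.27 and 0.17, partly over other genes. The split of all genes called went from 1189 up and 677 down to 555 up and 750 down with log2(FPKM + 1). Signs turned for 9 genes named above. Farsb was at -0.0028 with library size alone and at -0.024 and -0.025 in the FPKM fits, Atf5 at -0.0026 and -0.029 in the FPKM fits, and Hars at 0.012 with the length trend removed. Eif2ak1 was at -0.030 with library size alone, -0.033 with upper-quartile scaling and -0.11 and -0.12 in the FPKM fits. With 1 library left out, Iars ran from -0.25 to 0.027, Eif4ebp1 from -0.036 to 0.75, Psat1 from -0.57 to 0.082 and Wars2 from -0.25 to 0.084. Without control 5, ox-LDL 2 and ox-LDL 5, a choice made after seeing the data, Iars was at 0.23, Atf3 at -0.030 and Eif4ebp1 at -0.19, and 9 genes rose. Wars and Ppp1r15a rose under all 23 alternatives, and 0 of the 40 genes fell under any. Ddit4 and Chac1 had as few as 8 and 7 counts in a library, which limits the precision of their values.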
